A study of Mus musculus with 6 samples.

Results

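The RNA interference machinery was followed here as 10 genes, picked by symbol: Drosha, Dgcr8, Xpo5, Dicer1, Ago1, Ago2, Ago3, Ago4, Tnrc6a and Tnrc6b. The choice was made with earlier results of these data known. All 10 were present among the 48401 gene rows of every library, and all 10 passed the filter on low values that left 19141 genes for testing (a mean of at least 1 TPM over the 6 libraries, TPM being a transcript level scaled to gene length and library size). RNA had been sequenced from whole L4/5 dorsal root ganglia (DRG), which hold the cell bodies of sensory neurons together with glial, vascular and immune cells. The donors were male C57BL/6J mice, 8 weeks old, injected intrathecally (into the fluid around the spinal cord) with siNC, taken here as the control small interfering RNA (siRNA), or with siCLAP, directed at the long noncoding RNA CLAP, and each group held 3 libraries. Both groups had thus received an siRNA, and neither a group without siRNA nor the time after injection was part of the data analysed here. CLAP itself was not analysed here, so the knockdown was not checked. Nothing in the labels ties a library to a mouse of its own, and a p-value here reflects library-to-library spread, which may be technical. Where 3 values are given for a group they stand in the order of the library numbers, 1 to 3.

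RNA interference silences transcripts through short guide RNAs. Primary microRNA transcripts are cut in the nucleus by the microprocessor, made of the nuclease Drosha and its RNA-binding partner Dgcr8, and the resulting hairpins are carried to the cytoplasm by exportin 5 (Xpo5). Dicer cuts the hairpin to a duplex, an Argonaute protein keeps 1 strand as guide, and GW182 scaffold proteins (Tnrc6a, Tnrc6b and Tnrc6c) recruit the enzymes that shorten and decap the target. Synthetic siRNAs enter at the Argonaute step, and Ago2 is the mammalian Argonaute known for cutting a fully matched target. In sensory neurons Dicer is known to be needed for normal inflammatory pain.

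Microprocessor substrates are hairpins such as that of Mir1306, which lies inside the message of Dgcr8 itself. It sits in a coding exon of Dgcr8, at chr16:18284239-18284317 on the minus strand (GRCm38), and gives the 2 mature microRNAs shown first. The others are products of microRNA genes that lie on the same strand within other host genes, and they show the kind of guide that the Argonautes hold. Sequences are from RefSeq (GRCm38.p6), 5′ to 3′, with the seed, bases 2 to 8, in capitals.
miR-1306-5p (in Dgcr8): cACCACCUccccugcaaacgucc
miR-1306-3p (in Dgcr8): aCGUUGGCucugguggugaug
miR-22-3p (in Mir22hg): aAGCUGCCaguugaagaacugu
miR-26a-5p (in Ctdsp2 and in Ctdspl): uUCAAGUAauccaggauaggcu
miR-26b-5p (in Ctdsp1): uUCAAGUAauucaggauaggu
miR-106b-5p (in Mcm7): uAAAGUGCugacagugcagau
miR-93-5p (in Mcm7): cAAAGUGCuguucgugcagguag
miR-25-3p (in Mcm7): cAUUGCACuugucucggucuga
miR-128-3p (in Arpp21): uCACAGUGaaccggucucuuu
By seed these fall into a miR-26 pair, a pair of miR-106b and miR-93, and single seeds for the rest. These libraries measured gene transcripts, and mature microRNAs were not analysed here.

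Total expected counts per library ran from 21386768 to 46317735. A member had between 291 and 7176 counts in a library, so counting error alone is at most 5.86% of a value. Sensory neuron markers such as Tubb3 and Avil, 8 genes in all, summed to 13150 to 14430 TPM, and 0 of the 8 were at zero in any library. Skeletal muscle and spinal cord glia markers, 4 genes each, summed to at most 5.41 and 7.10 TPM. Leptomeningeal markers, from the membranes around the nerve roots, summed to 24.8 to 105 TPM in siNC and 7.20 to 18.1 TPM in siCLAP, and the neuron markers to 13150 to 13690 TPM in siNC and 13980 to 14430 TPM in siCLAP. On these 2 lists the groups did not overlap, although 0 marker genes passed the test. On all other marker lists they overlapped, among them satellite glia, Schwann cells, macrophages, endothelium, fibroblasts and erythroid cells. Over all genes, 21.6% had TPM groups without overlap. The part of either of the 2 lists in the results below was not tested. In bulk tissue fewer cells of a type and less RNA per cell cannot be told apart.

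Transcripts of all 10 genes were present in the ganglia. TPM, being scaled to length, compares genes. In siNC libraries Drosha was highest at 56.3 ± 1.46 TPM (mean ± SD, n = 3), followed by Tnrc6a at 45.3 ± 0.602 and Xpo5 at 34.2 ± 0.196. Ago2 followed at 30.8 ± 1.25 TPM, and below it stood Dicer1 at 18.7 ± 0.658, Dgcr8 at 18.1 ± 0.246 and Ago1 at 16.7 ± 0.240. Tnrc6b, Ago3 and Ago4 were the lowest, at 11.9 ± 0.709, 7.84 ± 0.282 and 5.34 ± 0.192 TPM. Neighbours in this order were separated by more than the spread of the siNC libraries, except Dicer1 (18.27 to 19.47 TPM) and Dgcr8 (17.81 to 18.29 TPM), whose ranges touched.

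In its middle part the order depended on the gene length used. The deposited counts and TPM give Ago2 3.70 times and Tnrc6b 4.67 times the length of Xpo5, against 2.05 and 3.45 times by the union of GENCODE M21 exons. Scaled by those exons, Ago2 came to 11.4 and Xpo5 to 7.04 CPM (counts relative to the library total) per kilobase in siNC, so they changed places, and Ago1 (5.73) moved above Dicer1 (4.19) and Dgcr8 (4.05). Drosha (16.5), Tnrc6a (11.5), Tnrc6b, Ago3 and Ago4 kept their ranks. Without any length scaling Ago2 had the most reads of the 10.

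**Figure D1:**
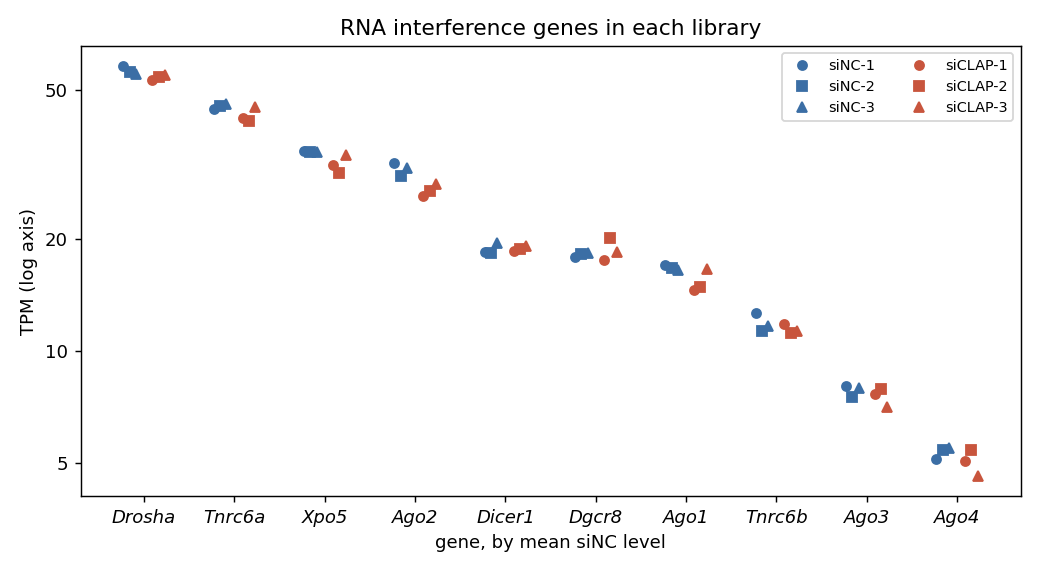
TPM (log axis) of each of the 10 genes in each of the 6 libraries, ordered by mean siNC level; blue is siNC, red is siCLAP, and the marker shape is the replicate number. Drosha sits above 50 TPM and Ago4 near 5 TPM in every library, and differences between groups are small beside those between genes.

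Between siCLAP and siNC ganglia, 0 of the 10 genes passed edgeR's quasi-likelihood test at an adjusted p under 0.05, beside 0.293% of all genes tested. Over all genes 0.0731% rose and 0.219% fell, against 0 and 0 of the 10. With no adjustment and the same threshold, 1 of 10 passed, beside 17.0% of all genes: 1 was lower (Ago2) and 0 were higher, beside 8.75% and 8.22%. DESeq2 called 1 member, Ago2, where it called 4.38% of the 13942 genes to which it gave an adjusted p, 2.68% as lower, and limma on log2(TPM + 0.5) called 0 members and 0 of all genes. Estimates were small throughout, from a log2 fold change of −0.17 (Ago2) to 0.06 (Dgcr8). All 10 intervals of 2 standard errors lay between −0.27 and 0.18. Of the 10 estimates 8 were below 0, as were 50.5% of all genes, and their median was −0.05 against −0.0018 over all genes.

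**Figure D2:**
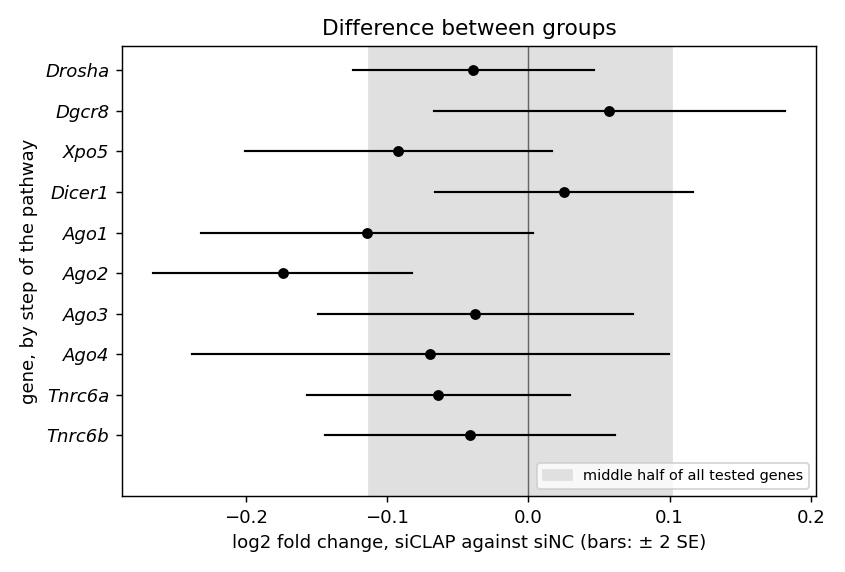
Fitted log2 fold change of siCLAP against siNC for each gene (dots), with bars of 2 standard errors either side, in the order of the pathway; the grey band is the interquartile range of all 19141 tested genes, −0.113 to 0.102. The bar of Ago2 alone among the 10 stays below 0, and 8 of the 10 dots lie inside the band, those of Ago1 and Ago2 falling to its left.

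Among the Argonautes, Ago2 had the largest difference of the 10 genes. Its level, in CPM normalised by the trimmed mean of M values (TMM), was 165, 156 and 160.5 in the siNC libraries and 137, 141 and 148 in the siCLAP libraries. Each siCLAP library was lower than each siNC library, so that the groups did not overlap. The fitted difference was 1.13-fold lower in siCLAP (log2 fold change −0.17 ± 0.05 SE, adjusted p = 0.101 in edgeR's test). By p-value Ago2 took rank 550 among the 19141 genes. It passed in DESeq2 (adjusted p = 0.0324), and over all alternatives the adjusted p ran from 0.0324 to 0.526, with estimates from −0.20 to −0.15. Groups of normalised CPM that did not overlap, with siCLAP lower, were found in 10.7% of all genes. Ago2 lies at chr15:73095844-73184935 (minus strand, mm10), and 219 of its 14031 exonic bases (1.56%) overlap exons of Chrac1 on the other strand. The library kit does not mark strand. Chrac1, which encodes a histone-fold protein of a chromatin remodelling complex, stood at 0.17 ± 0.09 (adjusted p = 0.366), with its estimate on the other side of 0.

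Ago1 stood at 46.8, 47.0 and 45.8 CPM in siNC-1 to siNC-3, and at 41.0, 41.6 and 46.5 CPM in siCLAP-1 to siCLAP-3. Its groups overlapped, because siCLAP-3 lay within the siNC range while the other 2 siCLAP libraries lay below it (log2 fold change −0.11 ± 0.06, adjusted p = 0.349). Ago3 had 45.2 to 47.2 CPM in siNC and 42.4 to 47.4 CPM in siCLAP, and Ago4 12.6 to 13.7 CPM and 11.6 to 13.6 CPM. For both, siCLAP-3 was the lowest library and the groups overlapped (log2 fold changes −0.04 ± 0.06 and −0.07 ± 0.08). Without siCLAP-3 the estimate of Ago3 turned to 0.01 and that of Ago4 was −0.01.

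The 4 Argonaute genes together gave 62.1, 59.1 and 60.8 TPM in siNC-1 to siNC-3, and 53.2, 55.0 and 56.3 TPM in siCLAP-1 to siCLAP-3. The sums did not overlap between groups, with means of 60.7 ± 1.51 and 54.8 ± 1.57 TPM (difference −5.83 TPM, exact two-sided permutation p = 0.1, which is the smallest that 3 against 3 libraries can give; adjusted p = 0.2 over the 4 sums, shares and ratios compared). Ago2 made up 50.7% ± 0.799 of Argonaute TPM in siNC and 49.2% ± 0.585 in siCLAP (51.5%, 49.9% and 50.7% against 48.8%, 48.8% and 49.8%; exact permutation p = 0.1, adjusted p = 0.2, n = 3 per group). The siNC-2 and siCLAP-3 libraries were nearly level, at 49.88% and 49.83%. Ago1 was next at 27.6% in siNC and 27.9% in siCLAP, then Ago3 at 12.9% and 13.8% and Ago4 at 8.81% and 9.19%, and the groups overlapped in each of these 3 shares. Groups of TPM that did not overlap, with siCLAP lower, made up 12.2% of all genes.

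**Figure D3:**
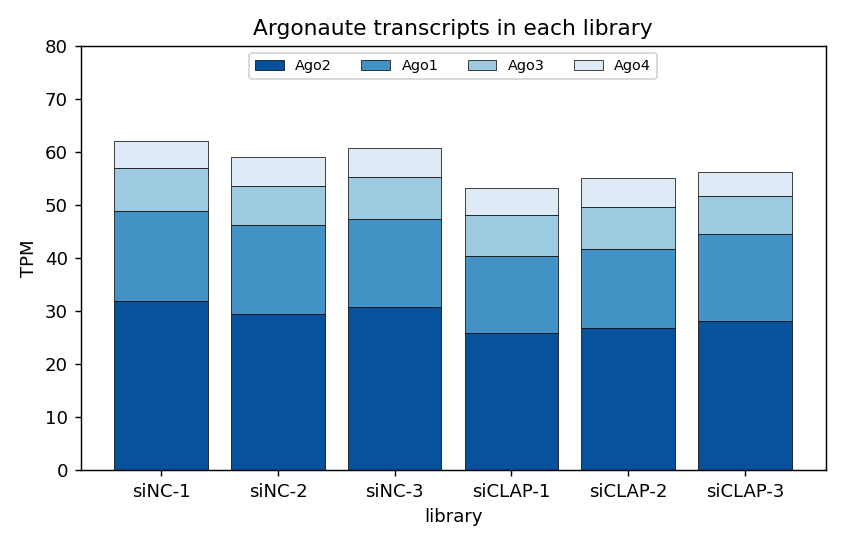
TPM of Ago2, Ago1, Ago3 and Ago4 (stacked from the bottom, axis from 0) in each library. The 3 siNC bars reach 59.1 to 62.1 TPM and the 3 siCLAP bars 53.2 to 56.3 TPM, and most of the difference lies in the lowest segment, Ago2.

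Ago3, Ago1 and Ago4 lie side by side on chromosome 4, all on the minus strand, at chr4:126331704-126429556, chr4:126435012-126468583 and chr4:126489541-126533472 (mm10), with gaps of 5.5 and 21 kilobases, while Ago2 lies alone on chromosome 15. In siNC these 3 neighbours ranged from 5.34 (Ago4) to 16.7 TPM (Ago1). Their promoters are shown as a description, and whether promoter sequence bears on level was not tested. Each is the 250 bases before the RefSeq start (GRCm38.p6, minus strand), with matches to the GC box, GGGCGG on either strand, in capitals. A GC box is the known binding motif of Sp1-type factors.
Ago1, chr4:126468584-126468833: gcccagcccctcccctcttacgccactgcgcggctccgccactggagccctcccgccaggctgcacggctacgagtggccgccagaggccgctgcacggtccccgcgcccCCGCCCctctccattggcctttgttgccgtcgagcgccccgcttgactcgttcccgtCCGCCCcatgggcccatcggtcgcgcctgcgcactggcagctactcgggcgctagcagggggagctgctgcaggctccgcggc
Ago3, chr4:126429543-126429792: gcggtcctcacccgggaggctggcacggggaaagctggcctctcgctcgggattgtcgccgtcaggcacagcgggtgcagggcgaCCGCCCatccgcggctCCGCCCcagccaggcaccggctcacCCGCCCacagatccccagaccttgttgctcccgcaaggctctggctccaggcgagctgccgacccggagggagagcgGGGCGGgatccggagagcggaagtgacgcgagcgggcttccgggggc
Ago4, chr4:126533459-126533708: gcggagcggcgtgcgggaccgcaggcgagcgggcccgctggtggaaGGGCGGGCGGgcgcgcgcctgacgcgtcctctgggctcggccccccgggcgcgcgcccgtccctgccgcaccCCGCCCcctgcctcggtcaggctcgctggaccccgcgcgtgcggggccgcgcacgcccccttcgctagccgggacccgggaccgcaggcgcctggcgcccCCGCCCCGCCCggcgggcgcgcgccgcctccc
Ago1 holds 2 matches, Ago3 4 and Ago4 5, of which 2 pairs overlap, and 32.7% of all 32851 promoter windows of that length hold at least 1. Ago4, the least abundant of the 10 genes, has the most CpG dinucleotides of the 3, at 46 in its window (percentile 99.7 of all windows), against 28 in Ago1 and 27 in Ago3. Over the 9 members with a window, 7 hold a GC box. Drosha and Tnrc6a, the 2 most abundant genes by TPM, have none, and their CpG dinucleotides number 33 and 9, beside a median of 6 over all windows. Xpo5, next in abundance, has 1 GC box and 33 CpG dinucleotides. Dicer1, Dgcr8 and Tnrc6b (in the window at its gene start) also have 1 GC box each, with 39, 36 and 14 CpG dinucleotides.

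At the nuclear steps the microprocessor was measured through both of its subunits. Drosha, the nuclease, had 99.7, 98.5 and 95.5 CPM in siNC-1 to siNC-3 and 94.1, 95.3 and 96.7 CPM in siCLAP-1 to siCLAP-3, and the groups overlapped (log2 fold change −0.04 ± 0.04, adjusted p = 0.675). On the TPM scale they did not, at 55.1 to 57.9 against 53.3 to 55.0 TPM, and with Ago2 and Xpo5 this made 3 of 10 members without overlap in TPM, beside 21.6% of all genes. Dgcr8 had 30.4, 31.7 and 31.4 CPM in siNC and 30.6, 34.8 and 32.0 CPM in siCLAP, with the highest value in siCLAP-2 (0.06 ± 0.06, adjusted p = 0.672). Without siCLAP-2 the estimate was 0.0053. The ratio of Drosha to Dgcr8 TPM was 3.11 ± 0.124 in siNC and 2.92 ± 0.182 in siCLAP, overlapping between groups (difference −0.197, exact permutation p = 0.2, adjusted p = 0.267, n = 3 per group), and without siCLAP-2 the difference was −0.0932. Dgcr8 has the largest exon overlap of the 10: 17.1% of its 7696 exonic bases lie over exons of other genes, with 10.7% of the exonic bases on the opposite strand in Trmt2a, which encodes a tRNA methyltransferase. Trmt2a stood at 0.04 ± 0.06 (adjusted p = 0.773). Drosha and Dgcr8 lie at chr15:12824815-12935291 and chr16:18253948-18289246.

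Xpo5, the export receptor of the hairpins, was at 48.1, 48.8 and 47.9 CPM in siNC-1 to siNC-3 and at 45.2, 42.7 and 47.9 CPM in siCLAP-1 to siCLAP-3. The groups did not overlap, but siCLAP-3 at 47.89 CPM lay just under siNC-3 at 47.93 CPM (log2 fold change −0.09 ± 0.05, adjusted p = 0.412). With Ago2 it was 1 of 2 members without overlap on this scale, where 21.5% of all genes had none. Ran, the GTPase that drives export, stood at 0.15 ± 0.06 (184 and 202 TPM in siNC and siCLAP, adjusted p = 0.221), and Xpo1, the general export receptor, at −0.06 ± 0.05. Xpo5 lies at chr17:46202782-46243598 (plus strand), with no exon of another gene over its own.

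Dicer1, the enzyme that cuts hairpins to duplexes, had 68.4, 69.5 and 72.8 CPM in siNC and 70.7, 70.9 and 72.5 CPM in siCLAP, so all siCLAP values lay inside the siNC range (log2 fold change 0.03 ± 0.05, interval −0.07 to 0.12, adjusted p = 0.816). Its RNA-binding partners Tarbp2 and Prkra, which help Dicer load the duplex, were at 27.8 and 33.7 TPM in siNC and 28.0 and 32.3 TPM in siCLAP. Dicer1 lies at chr12:104687742-104751952 (minus strand).

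The GW182 scaffold Tnrc6a had 143, 148.5 and 147 CPM in siNC-1 to siNC-3 and 138, 134.5 and 147 CPM in siCLAP-1 to siCLAP-3. The groups overlapped through siCLAP-3 (log2 fold change −0.06 ± 0.05, adjusted p = 0.514). Tnrc6b had 75.7 to 82.8 CPM in siNC and 74.1 to 79.0 CPM in siCLAP (−0.04 ± 0.05), and its estimate turned to 0.0039 without siNC-1, its highest library. Tnrc6c, the remaining scaffold, was at 21.5 and 20.7 TPM in siNC and siCLAP (−0.04 ± 0.05, adjusted p = 0.701). Tnrc6a gave 57.6% and 57.2% of the TPM of the 3 scaffolds in siNC and siCLAP, Tnrc6c 27.3% and 27.6%, and Tnrc6b 15.1% ± 0.816 and 15.2% ± 0.680 (exact permutation p = 0.9 for Tnrc6b, adjusted p = 0.9, n = 3 per group). The groups overlapped in each of the 3 scaffold shares, and only that of Tnrc6b was tested. Tnrc6a and Tnrc6b lie at chr7:123123885-123195296 and chr15:80711313-80941085.

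The members varied little among the libraries. The highest library exceeded the lowest by 1.06 times for Dicer1 and Drosha and by at most 1.2 times, for Ago2. Leaving out 1 library moved several small estimates, such as Xpo5 to −0.05 without siCLAP-2 and Ago1 to −0.17 without siCLAP-3. Within groups the coefficient of variation ran from 1.84% (Drosha) to 6.31% (Ago4), and Ago4 also had the fewest counts. The highest value of a gene lay in a siNC library for 8 of the 10 and in siCLAP-2 for Ago3 and Dgcr8. The mean log2 CPM of the 10 was 5.89, 5.89 and 5.90 in siNC-1 to siNC-3 and 5.82, 5.84 and 5.85 in siCLAP-1 to siCLAP-3, so each siCLAP library was slightly lower. This difference in the mean was not tested. Taken singly, 2 of the 10 genes, Ago2 and Xpo5, were without overlap and lower in siCLAP, beside 10.7% of all genes.

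Around the 10 genes, 126 further symbols of the small RNA pathway were looked up, some of them alternative names of the same gene, such as Ddx58 and Rigi. Of the 126 symbols 115 were present and 99 were tested. Of these 1 fell, 0 rose and 98 did not pass, beside 0.219% and 0.0731% of all genes that fell and rose. Their median log2 fold change was −0.03. The gene that fell was Fkbp5, a cochaperone of Hsp90 that is also a well-known glucocorticoid-induced gene. It went from 34.3, 41.6 and 41.9 TPM in siNC-1 to siNC-3 to 27.6, 26.6 and 29.6 TPM in siCLAP-1 to siCLAP-3, without overlap (log2 fold change −0.48 ± 0.08, adjusted p = 0.0439 in edgeR's test). TPM groups without overlap and with siCLAP lower made up 12.2% of all genes. The call ended without siNC-2, siNC-3, siCLAP-1 or siCLAP-2 (adjusted p = 0.0554, 0.213, 0.225 and 0.0883), without siNC-3 and siCLAP-2 together (0.256) and with limma on log2(TPM + 0.5) (0.159), while the estimate stayed between −0.57 and −0.40 in all 16 alternatives. Some alternatives also called pathway genes that did not pass here: Btg1, Sidt2 and Tsn with DESeq2 and with no TPM filter, Btg1 with a mean TPM of at least 5, and Btg1 and Zswim8 without siCLAP-3. Counting Fkbp5, these 4 settings called 4, 4, 2 and 3 pathway genes. Beside them stood 4.38% of 13942 genes with DESeq2, 835 of 30347 with no TPM filter, 118 of 13815 with the stricter filter and 340 of 19141 without siCLAP-3.

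The chaperones that load duplexes into Argonaute were measured in the same list as Fkbp5, where 1 of 12 genes fell and 11 did not pass (median −0.06). Hsp90ab1 and Hsp90aa1, the cytosolic Hsp90 chaperones, stood at −0.12 ± 0.04 and −0.10 ± 0.04 (adjusted p = 0.159 and 0.236), and the Hsp70-Hsp90 adaptor Stip1 at −0.12 ± 0.05. The cochaperone Ptges3 (p23) stood at 0.14 ± 0.06, on the other side of 0. In the list of microprocessor cofactors 0 of 13 passed (median −0.04), with the splicing factor Srsf3 at 0.20 ± 0.07 and the scaffold attachment factor Safb2 at −0.19 ± 0.07. Of 7 Argonaute and PIWI genes 5 were tested and 0 passed (median −0.10). Piwil2, of the germline piRNA pathway, was low at 2.01 and 1.86 TPM.

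Downstream of the scaffold, 0 of 16 tested scaffold and associated genes passed (median −0.04). Zswim8, of the ubiquitin ligase that degrades Argonaute on certain targets, was at −0.15 ± 0.05 (75.2 and 67.1 TPM in siNC and siCLAP, adjusted p = 0.206). Among deadenylation genes 0 of 16 passed (median 0.02). Btg1, an adaptor that activates the deadenylase, was nearest, at 12.8 and 15.9 TPM in siNC and siCLAP (0.32 ± 0.06, adjusted p = 0.0584), and the deadenylase subunit Pan2 was at −0.16 ± 0.06. Among decapping and 5′ to 3′ decay genes 0 of 13 passed (median −0.03), and the decapping enzyme Dcp2 and its activator Dcp1a had estimates on opposite sides of 0, at 0.18 ± 0.05 and −0.25 ± 0.09. Among processing, tailing and turnover genes 0 of 11 passed (median 0.02), with the RNA-binding protein Tsn at 0.25 ± 0.07 (adjusted p = 0.136) and the mitochondrial exonuclease Pnpt1 at 0.16 ± 0.06.

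**Figure D4:**
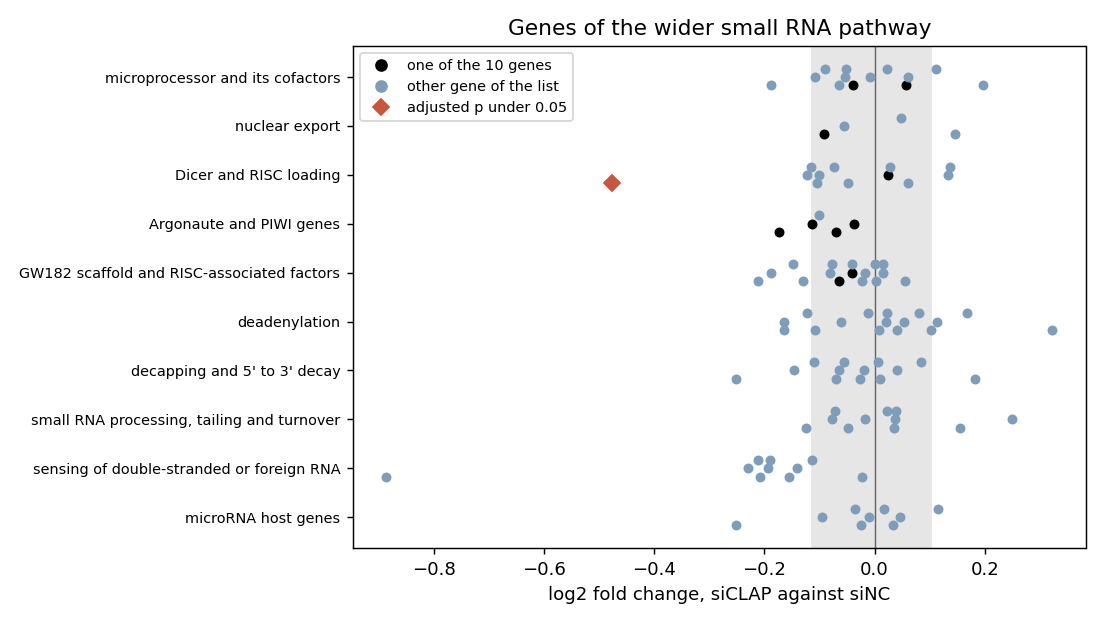
Fitted log2 fold change of siCLAP against siNC for every tested gene of the 10 pathway lists, 1 dot per gene, with the 10 genes in black and the single gene that passed (Fkbp5) as a red diamond; vertical offsets only separate dots. Most dots lie within or near the grey interquartile range of all genes, and the far left dot among the sensing genes is Oas2 at −0.89.

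Sensors of double-stranded or foreign RNA were the list with the lowest median. Of 10 tested genes 0 passed, all 10 estimates were below 0, and the median was −0.19. Over all genes 50.5% of estimates were below 0, and in the Argonaute and PIWI list all 5 tested were. Sidt2, a lysosomal RNA transporter, stood at −0.21 ± 0.05 (69.6 and 59.5 TPM in siNC and siCLAP, adjusted p = 0.0984). For 7 of the 10, among them Ifih1 (the sensor MDA5) and Ddx58 (the sensor RIG-I), the 2 highest libraries were siNC-3 and siCLAP-2, 1 from each group. Ifih1 was at 8.30, 7.96 and 11.2 TPM in siNC-1 to siNC-3 and 5.87, 9.77 and 7.44 TPM in siCLAP-1 to siCLAP-3. Oas2, an oligoadenylate synthetase, ranged from 1.46 TPM in siCLAP-1 to 11.3 TPM in siNC-3 (−0.89 ± 0.52, adjusted p = 0.404). An interferon response list of 8 genes summed to 763 and 804 TPM in siNC-3 and siCLAP-2 and to 486 to 507.5 TPM in the other 4 libraries. Of the 10 RNA interference genes, 0 had siNC-3 and siCLAP-2 as their 2 highest libraries, and the share of all genes that did was not counted. With all 6 libraries 8 of 10 estimates were below 0 and 0 passed. Without these 2 libraries both counts were the same (smallest edgeR adjusted p = 0.526), in a fit where 13 of 19141 genes passed. Whether the interferon difference bears on the 10 genes was not tested.

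**Figure D5:**
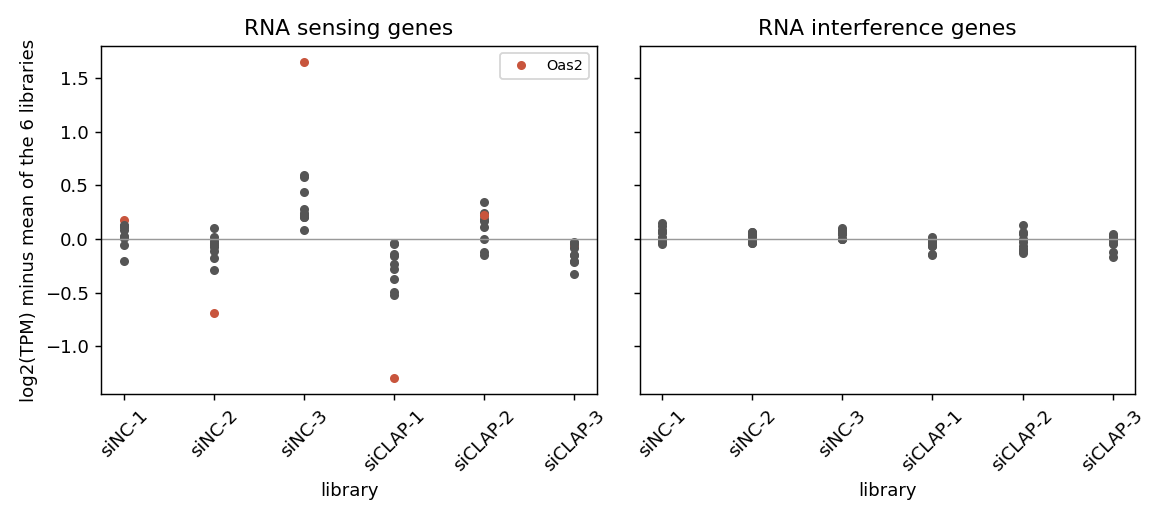
log2(TPM) of each gene minus its mean over the 6 libraries, for 10 RNA sensing genes (left; Oas2 in red) and the 10 RNA interference genes (right), on the same axis. The sensing genes are spread widely and 7 of them are highest in siNC-3 and siCLAP-2, while the RNA interference genes stay close to 0 in every library.

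Among microRNA host genes, a list that holds every host named above except Dgcr8, 0 of 9 tested genes passed and the median was −0.01. Mcm7, a DNA helicase subunit that hosts miR-106b, miR-93 and miR-25, stood at −0.25 ± 0.09 (10.3 and 8.55 TPM in siNC and siCLAP, adjusted p = 0.201). Mir22hg, the host of miR-22, stood at 0.11 ± 0.12. The 3 phosphatase genes that host the miR-26 family, Ctdsp1, Ctdsp2 and Ctdspl, were at 22.1, 43.2 and 17.2 TPM in siNC and 21.3, 42.5 and 15.9 TPM in siCLAP. Arpp21, the host of miR-128, stood at 0.05 ± 0.07 (adjusted p = 0.767). These hosts have introns and exons of their own, so their levels are not those of the microRNAs.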

How the data were processed

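The authors deposited for each library a TPM value and an expected count per gene symbol. The submitters' processing notes name FastQC 0.11.8, HISAT2 2.1.0, featureCounts 1.6.2 and mm10; for the annotation, strand setting and shared reads, the sources used here give nothing. Of the deposited expected counts 66.5% were whole within 1e-06, and 11 of the 60 member values, so most member counts are fractional, for a reason these sources do not give. Counts were rounded and tested with edgeR 4.0.16 in R 4.3.3 (quasi-likelihood test, TMM, no covariate, mean TPM of at least 1, Benjamini-Hochberg adjustment over 19141 genes, threshold 0.05). SE is |log2 fold change| divided by the root of F. Sums, shares and ratios were compared by exact permutation. Alternatives were DESeq2 1.42.0, limma 3.58.1, other scalings, filters and pseudocounts, a replicate block, and libraries left out. GENCODE M21 gave coordinates and exon overlaps; RefSeq sequences matched 9 of 10 members' promoters. Libraries of a group differed by more than counting noise (mean chi-square per gene 4.36 to 10.0). Named genes were the 10 members, Tnrc6c, every pathway gene that passed and otherwise the 2 with the smallest p in each list, some of which are not reported here; other names were picked with their values known. The members and lists were chosen with earlier results of these data known.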

Additional observations from a re-analysis of the deposited data

How the results depend on the processing

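Of 160 member estimates under 16 alternatives, 157 kept their direction and their side of the threshold. The exceptions were Ago2, which passed with DESeq2 (−0.1752), Tnrc6b without siNC-1 (0.0039) and Ago3 without siCLAP-3 (0.0081); with each library left out in turn Tnrc6b ran from −0.0736 to 0.0039 and Ago3 from −0.07 to 0.0081. The number of members that changed was 0, except 1 with DESeq2, and it was 0 without each single library. The number of all genes that changed was 56. It was 611 with DESeq2, 0 with limma at each pseudocount (0.5, 0.1 and 1), 835 with no TPM filter, 118 with a mean TPM of at least 5 and 13 without siNC-3 and siCLAP-2, and it ran from 0 (without siCLAP-1) to 340 (without siCLAP-3) over single libraries left out; the cause was not tested. The difference in summed Argonaute level was −22.9 CPM with expected counts in place of TPM, a different scale. With the replicate number as a block 203 genes and 0 members changed. Same-numbered libraries did not deviate together (correlations of 0.0656, 0.00766 and −0.0443 over 19141 genes), and 3 of 6 libraries correlated best with their own number, so the numbers were not taken to pair the libraries.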

Other observations

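The Mir1306 hairpin within Dgcr8 has a gene row of its own, with 54.0, 61.8 and 44.1 TPM in siNC-1 to siNC-3 and 42.0, 47.6 and 57.8 TPM in siCLAP-1 to siCLAP-3. It rests on 28.7 to 87.8 counts per library, and since the row lies inside a coding exon of Dgcr8, these reads cannot be told apart from reads of the Dgcr8 message. Its groups overlapped (log2 fold change −0.15 ± 0.19, edgeR adjusted p = 0.722). This row was chosen after its values were seen.

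Outside the pathway lists, the genes whose log2 CPM over the 6 libraries was most like the mean of the 10 RNA interference genes were Slc26a11 (Pearson r = 0.9996), Tub (0.9965), Phlpp2 (0.9951), AK137276 (0.9927) and Sorbs3 (0.9926). These are the top of all tested genes outside the 10 members and the pathway lists, over 6 points, and are given as a description.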
